A study of Arabidopsis thaliana with 8 samples.

Results

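In dark-grown Arabidopsis thaliana seedlings, 57 nuclear genes were at least 4-fold higher after heat followed by anoxia than in untreated controls, while heat alone and anoxia alone each left them less than 2-fold above control. They were chosen by these values: on the log2 scale of the deposited intensities, heat then anoxia minus control had to be at least 2, heat minus control and anoxia minus control both under 1, and both heat then anoxia arrays above all 6 other arrays. Of the 13367 probe sets that the name tables give to 1 nuclear gene, covering 13217 genes, 57 met the rule (0.426%), 1 for each gene. The choice used all 8 arrays and the 3 comparisons with control, so the levels and changes in those comparisons are given as a description, without a test. They do not belong to a single family: regulators of transcription, ubiquitin ligase subunits, secreted proteins, metabolic enzymes and membrane proteins were all among them.

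The seedlings were whole plants of the ecotype Columbia 0, 4 days old, kept in the dark in liquid half-strength Murashige-Skoog medium with 30 mM sucrose. In the heat then anoxia group they were held at 38 °C for 90 minutes and afterwards without oxygen for 6 hours. The heat group had the 90 minutes at 38 °C alone, the anoxia group had the 6 hours without oxygen at 23 °C alone, and the control group stayed at 23 °C with air. Each group had 2 biological replicates, with RNA of each on 1 Affymetrix ATH1 array, and nothing in the labels says whether the replicates came from separate cultures. A group returned to air for 6 hours after heat was not analysed here, so anoxia after heat and the time since heat cannot be told apart. In RNA from whole seedlings, a change in the number of cells of a type and a change in RNA per cell cannot be told apart either.

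Plant cells answer heat mainly through heat shock factors, which switch on chaperones that keep proteins folded. Without oxygen, respiration stops, sugar is fermented, and a separate set of factors, stabilised when oxygen is low, switches on the genes of fermentation. Both stresses also strain membranes, protein turnover and the supply of energy, and a seedling that meets one after the other is exposed to both kinds of signal in sequence.

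The median intensity was 36.8 and 42.6 in heat then anoxia, 42.5 and 39.5 in heat, 46.1 and 48.4 in anoxia, and 50.9 and 53.2 in control, and between 58.1% and 60.6% of probe sets per array reached a log2 level of 4, below which signals are treated here as dim. Replicates correlated at 0.960 to 0.978 across probe sets. The probe set for 25S ribosomal RNA stood apart on heat then anoxia replicate 2 (11.46, against 4.47 on replicate 1) and on anoxia replicate 2 (12.19, against 4.60). Across the single-gene nuclear probe sets that passed the filter (a log2 level of at least 4 on at least 2 arrays), the median change against control was -0.32 in heat then anoxia, -0.20 in heat and -0.01 in anoxia. The changes of the 57 genes are set against this slight overall fall.

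The rule drew from a larger set of strong risers. Of 630 single-gene probe sets at least 2 above control after heat then anoxia, 345 were also at least 1 above control in heat alone, 68 in anoxia alone and 159 in both single treatments. The remaining 58 reached 1 in neither, and 57 of these also had both heat then anoxia arrays above every other array. The same limits turned downwards were met by 95 probe sets. Without the requirement of a named nuclear gene 102 probe sets met the limits, of which 4 match several genes and 41 have no gene listed, so the 57 are the nameable share of the pattern.

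**Figure D1:**
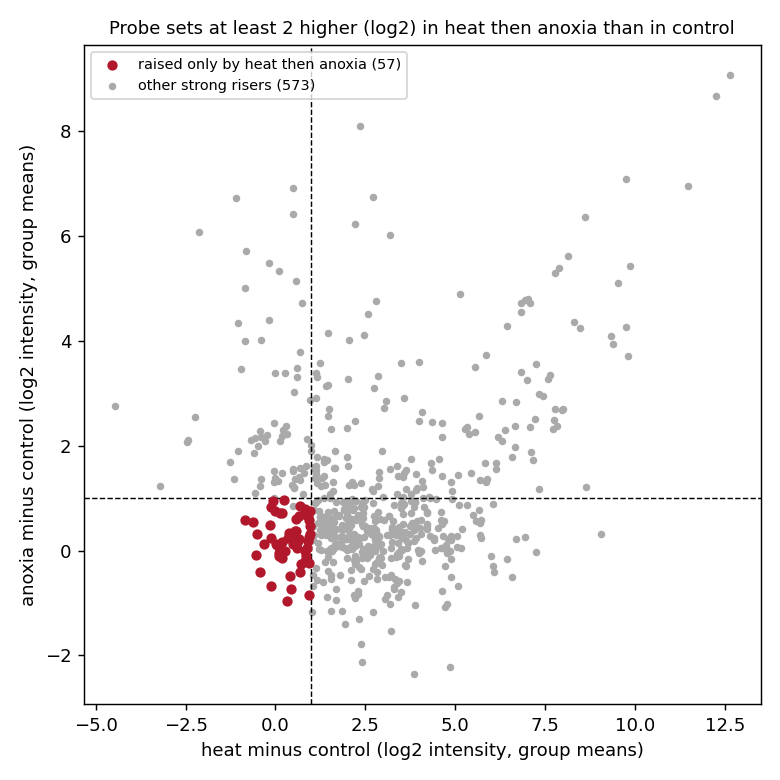
Each point is 1 of the 630 single-gene probe sets at least 2 above control after heat then anoxia on the log2 scale, with its change in heat alone on the horizontal axis and in anoxia alone on the vertical axis (log2 units, group means of 2 arrays). The 57 genes described here fill the corner where both single changes lie under 1, and the 345 probe sets at least 1 above control in heat alone lie to its right.

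Among the 57 genes, heat then anoxia minus control ran between 2.00 and 5.67 with a median of 2.32, and 39 of the genes lay between 2 and 2.5. Heat alone moved them by -0.84 to 0.97 (median 0.49) and anoxia alone by -0.96 to 0.97 (median 0.23). The name of the set is therefore a matter of degree: 27 genes were at least 0.5 above control in heat, 16 in anoxia and 8 in both, and 22 were below 0.5 in both. The limits of the rule place the change in heat then anoxia above the sum of both single changes in every member. The excess was 0.39 to 4.48 (median 1.86), and at least 1 in 51. Against heat alone the difference was 1.09 to 4.99, and against anoxia alone 1.10 to 4.82, where the rule itself requires more than 1. The distance between the lower heat then anoxia array and the highest other array was 0.39 to 4.36, with 35 genes at 1 or more.

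**Figure D2:**
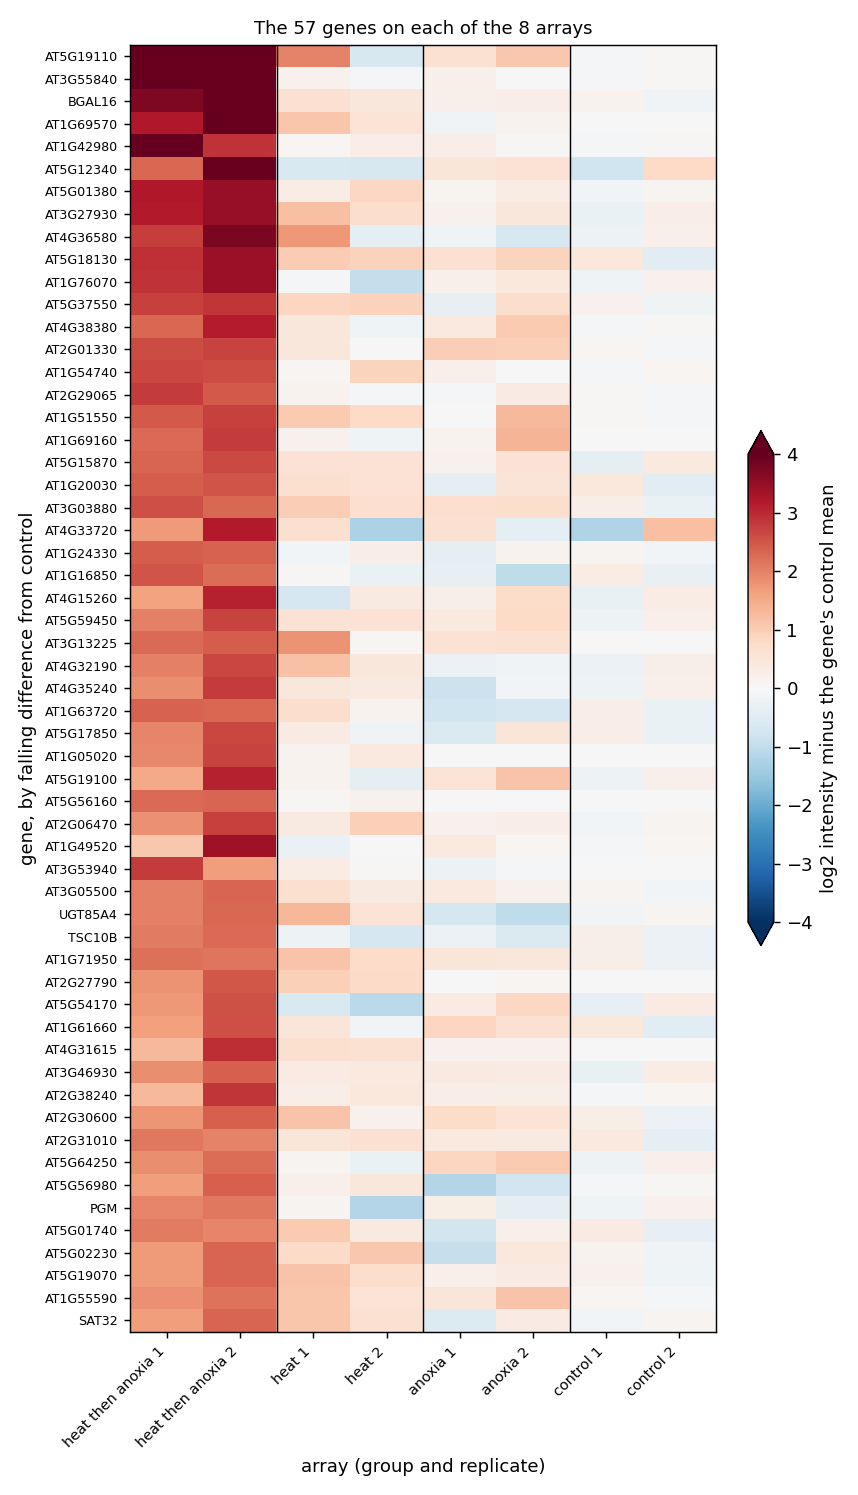
Log2 intensity minus the control mean for the 57 genes (one gene per line of the colour map, sorted by change) on each of the 8 arrays, with heat then anoxia at the left and control at the right; colours saturate at 4. The 2 heat then anoxia columns stand above the other 6 for every gene, which the rule required, while the heat and anoxia columns mix small rises and falls.

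Levels differed widely among the genes, with means of 4.29 to 12.17 in heat then anoxia and 1.94 to 10.01 in control. In control seedlings 25 genes were dim with a mean below 4, 12 lay between 4 and 6, and 20 at 6 or more. For 17 genes all 6 arrays other than heat then anoxia were below 4, and for 29 genes all 8 arrays were at 4 or above. The filter was passed by 53 genes. The other 4, AT1G49520, AT3G53940, AT4G31615 and AT2G38240, reached 4 on only 1 heat then anoxia array each.

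The largest change belonged to AT5G19110, which encodes a protein like extracellular aspartyl proteases. Its log2 level was 11.33 and 12.16 in heat then anoxia, 8.07 and 5.43 in heat, 6.68 and 7.16 in anoxia, and 6.04 and 6.11 in control, which makes it 50.7-fold higher after heat then anoxia than in control. Both heat then anoxia arrays were more than 3 above every other, but the heat replicates lay 2.65 apart, so its level after heat alone is poorly known. It no longer met the rule without heat replicate 2, without anoxia replicate 1 or with median centring. The next gene, AT3G55840, encodes a relative of the beet nematode resistance protein Hs1pro-1. It measured 7.08 and 7.21 in heat then anoxia, 2.70 and 2.43 in heat, 2.72 and 2.54 in anoxia, and 2.49 and 2.56 in control. The 6 lower arrays were dim and close together, its 24.7-fold difference is thus from signals near background, and its gap of 4.36 to the nearest other array was the widest of the 57.

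**Figure D3:**
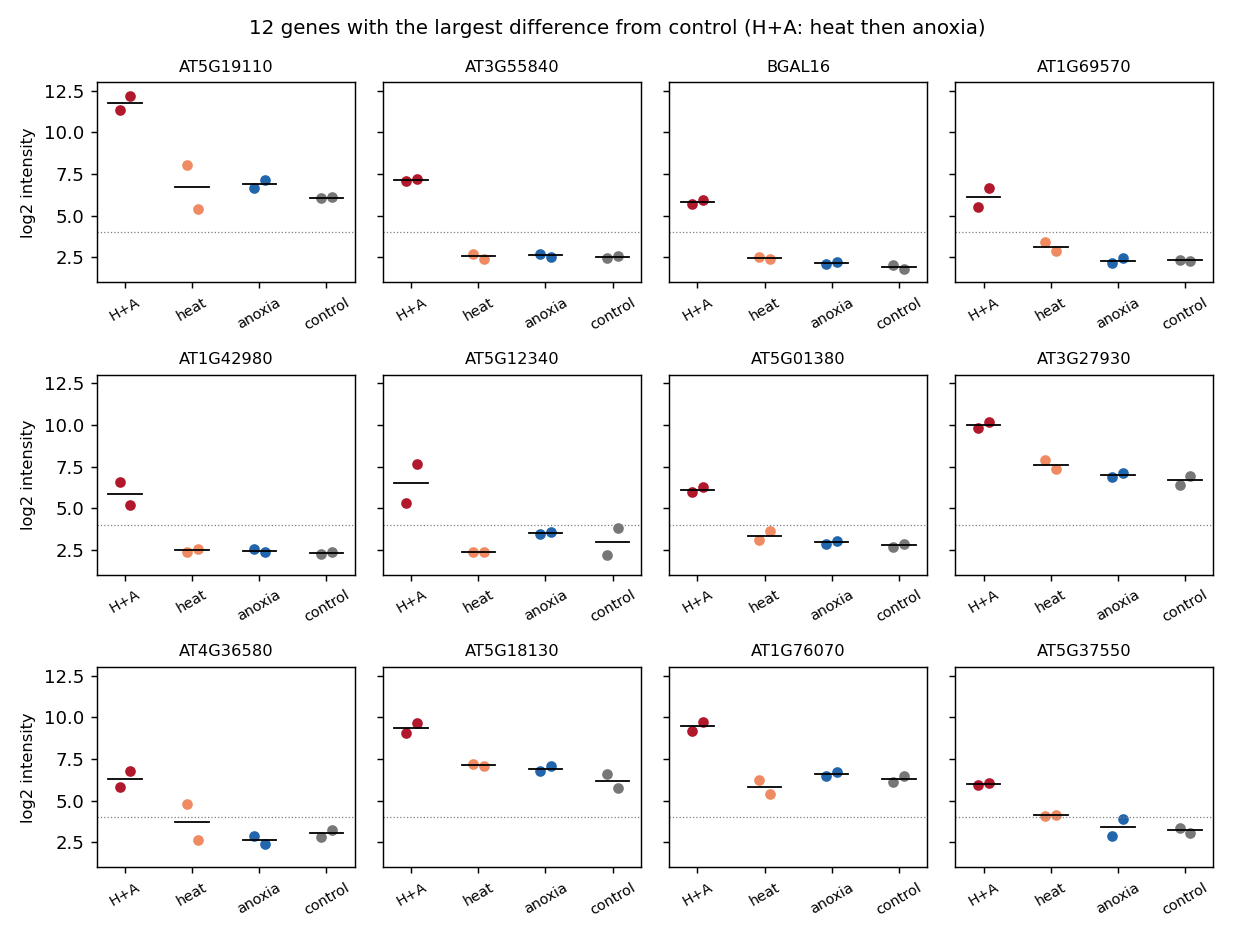
Log2 intensity on each array for the 12 genes with the largest heat then anoxia minus control, in the order heat then anoxia (H+A), heat, anoxia, control; points are single arrays, bars are group means, and the dotted line is the dim limit of 4. AT5G19110 alone of the 5 largest starts above the dim limit in control, and its 2 heat arrays are far apart.

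Several other genes of the secreted, cell wall and defence kind belonged to the set, 9 in all with changes of 2.04 to 5.67 (median 2.46). BGAL16, a beta-galactosidase family member that trims galactose from cell wall polymers, had 5.69 and 5.92 in heat then anoxia, 2.54 and 2.41 in heat, 2.14 and 2.20 in anoxia, and 2.07 and 1.81 in control. It was thus dim in all groups but one. AT5G15870, a family 81 glycosyl hydrolase thought to act on beta-glucans, had 9.58 and 9.87 in heat then anoxia, 7.81 and 7.80 in heat, 7.41 and 7.80 in anoxia, and 6.83 and 7.64 in control. Here the 6 other arrays were already bright, and the change was 2.49. AT1G20030, a thaumatin-like protein of the kind made against fungi, changed by 2.46, and the protease inhibitor-like AT1G71950 by 2.16 at a level of 12.20 and 12.13 in heat then anoxia, against 10.24 and 9.78 in control. AT4G33720, related to pathogenesis-related protein PR-1, changed by 2.43, but its control arrays read 2.81 and 5.19. The remaining members of this kind are AT5G56980, known as a gene induced by microbial patterns, and AT5G19100, described with its neighbours below.

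Regulators of gene expression made up 7 genes, with changes of 2.12 to 3.79 (median 2.35). AT1G69570 encodes a cycling Dof factor, a class of DNA-binding proteins that set the timing of flowering. It read 5.52 and 6.69 in heat then anoxia, 3.42 and 2.87 in heat, 2.17 and 2.46 in anoxia, and 2.35 and 2.29 in control. Its heat arrays were both above its control arrays, but all 4 were dim. AT5G01380, a trihelix factor of the GT-3 type, read 5.97 and 6.26 in heat then anoxia, 3.07 and 3.61 in heat, 2.87 and 3.05 in anoxia, and 2.66 and 2.89 in control. The set had 2 GRAS factors, a plant family of growth and stress regulators: the dim AT2G29065 changed by 2.63 and the brighter AT5G59450 by 2.35. AT5G59450 read 7.98 and 8.67 in heat then anoxia, 6.56 and 6.55 in heat, 6.36 and 6.78 in anoxia, and 5.78 and 6.17 in control, so that both single treatments lay slightly above control. The bHLH factor AT1G61660 changed by 2.12, and the dim B3 factor AT4G31615 and SWIB-domain gene AT1G49520 by 2.12 and 2.24.

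Signalling and protein turnover contributed 6 genes with changes of 2.01 to 2.60 (median 2.09). Ubiquitin ligases mark proteins for destruction, and 4 of the genes encode likely parts of them. AT1G51550, a kelch-repeat F-box protein, read 7.27 and 7.55 in heat then anoxia, 5.85 and 5.60 in heat, 4.81 and 6.11 in anoxia, and 4.84 and 4.78 in control. AT1G24330, a U-box protein, read 5.29 and 5.22 in heat then anoxia, 2.77 and 3.14 in heat, 2.51 and 3.02 in anoxia, and 2.96 and 2.77 in control. AT1G24330 thus went above the dim limit in heat then anoxia alone, whereas AT1G51550 was 0.92 above control after heat. AT1G55590, an F-box protein with leucine-rich repeats, and AT2G30600, a BTB-domain protein, changed by 2.01 and 2.07. With AT1G71950 they had the smallest excess of the whole set over the sum of the single changes, 0.39 for AT1G55590, 0.77 for AT2G30600 and 0.75 for AT1G71950. Raf-like protein kinases were represented by AT3G46930 and AT2G31010, with changes of 2.12 and 2.05. A second probe set of AT2G31010, dim in all groups, read 3.61 in heat then anoxia and 3.12 in control on average, a change of 0.49.

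Membrane, transport and lipid functions were the largest kind, with 10 genes and changes of 2.02 to 3.33 (median 2.30). AT3G27930, a mitochondrial outer membrane protein, read 9.83 and 10.16 in heat then anoxia, 7.87 and 7.37 in heat, 6.85 and 7.12 in anoxia, and 6.40 and 6.94 in control. Its change after heat alone, 0.95, was close to the limit of 1. AT4G36580, an ATPase of the AAA type, changed by 3.26, but its heat replicates read 4.78 and 2.66. AT3G05500, a small protein of the rubber elongation factor family that coats lipid droplets, was among the brightest of the set: 12.01 and 12.33 in heat then anoxia, 10.62 and 10.35 in heat, 10.37 and 10.18 in anoxia, and 10.10 and 9.88 in control. Its 4 groups were tight, and its 2.18 change is 4.52-fold. The others were the MATE transporter AT4G38380 (2.72), the cation exchanger AT5G17850 (2.31), the clathrin adaptor AT1G05020 (2.30), the Sec14-like lipid transfer protein AT5G56160 (2.29), the mitochondrial carrier AT3G53940 (2.24), the START-domain protein AT5G54170 (2.14) and the Golgi membrane protein AT5G19070 (2.02).

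The 7 metabolic enzymes had the smallest median change of these kinds, 2.08, with a range of 2.02 to 2.35. TSC10B, a reductase of sphingolipid synthesis, read 7.13 and 7.32 in heat then anoxia, 4.87 and 4.39 in heat, 4.83 and 4.49 in anoxia, and 5.30 and 4.81 in control. It is 1 of only 3 genes with both single treatments below control, beside PGM, annotated as a phosphoglycerate mutase-like protein, and AT1G16850. PGM changed by 2.03 and AT1G16850, for which no role is given, by 2.38. AT2G38240, a dioxygenase that inactivates the wound hormone jasmonate, read 3.94 and 5.52 in heat then anoxia and 2.58 to 3.07 on all other arrays. The group also held the glycosyltransferases UGT85A4 (2.17) and AT4G15260 (2.35), the nitropropane dioxygenase-like AT5G64250 (2.05) and the hydrolase AT5G02230 (2.02).

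Cytoskeleton and plastid structure had 3 genes. AT1G42980, a formin, which nucleates actin filaments, read 6.57 and 5.19 in heat then anoxia, 2.38 and 2.56 in heat, 2.56 and 2.35 in anoxia, and 2.23 and 2.35 in control. The WD-repeat protein AT2G01330, related to an actin-interacting protein, changed by 2.65 and AT4G32190, needed to start starch granules, by 2.34. No role is given here for 15 genes, whose changes were 2.00 to 3.48 (median 2.38). AT1G76070 was the clearest of them, with 9.21 and 9.75 in heat then anoxia, 6.25 and 5.38 in heat, 6.51 and 6.75 in anoxia, and 6.15 and 6.49 in control. The 2 single treatments lay on either side of control, and heat then anoxia stood 2.46 above the nearest other array. AT5G12340 (3.48), AT5G18130 (3.19), AT5G37550 (2.80), AT1G54740 (2.65), AT1G69160 (2.53), AT3G03880 (2.43), AT3G13225 (2.35), AT4G35240 (2.32), AT1G63720 (2.32), the pseudogene AT2G06470 (2.28), AT2G27790 (2.15), AT5G01740 (2.02) and SAT32 (2.00), linked to salt tolerance, complete the set together with AT1G16850.

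The values at the edges of the rule show how little separates some members from other genes. SAT32, AT1G55590 and AT5G19070 lay just inside at 2.00, 2.01 and 2.02 above control in heat then anoxia, and EXLA1, AT5G24080 and AT4G25390 just outside at 1.99, 1.97 and 1.95. At the limit for heat alone, AT5G18130 (0.97), AT3G27930 and AT1G71950 (0.95 each) were inside, and AT3G18170 (1.01), AT3G59350 and RL2 (1.03 each) outside. At the limit for anoxia alone, AT2G01330 (0.97), AT5G64250 (0.95) and AT5G19110 (0.84) were inside, while PUB22 (1.01), a second probe set of AT2G30600 (1.08) and AT3G25790 (1.09) were outside. PUB22, a ubiquitin ligase, was 3.16 above control in heat then anoxia. The gap to the next array was narrowest in AT5G19100 (0.39), AT3G13225 (0.45) and AT4G33720 (0.50), and AT5G47740 missed by 0.03 (gap -0.03).

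Heat and anoxia can also be set against each other, again as a description. The rule holds each of them less than 1 above control, and so bounds their difference, and it was applied to the same arrays. The heat mean was above the anoxia mean in 38 of the 57 genes and below it in 19, and the share over all probe sets was not counted. The median of heat minus anoxia was 0.20 in the genes of the set and -0.20 over all tested probe sets. With median centring the latter was 0.01, so the place of 0 depends on the scaling. At an adjusted p below 0.05 and at least 2-fold, limma over all 14535 probe sets called 3 of the 53 genes that passed the filter higher in heat (5.66%, against 9.46% of all probe sets) and 2 lower (3.77%, against 12%). These shares are not compared further, because the limits of the rule restrict how often its genes can be called, and 13 of the 53 genes reached the dim limit on the 2 heat then anoxia arrays alone.

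UGT85A4, of a family that joins sugars to small molecules, read 7.65 and 6.89 in heat and 5.65 and 5.32 in anoxia, a difference of 1.79 ± 0.31 (SE). AT5G56980 read 6.66 and 6.89 in heat and 5.29 and 5.68 in anoxia (1.29 ± 0.30). AT1G63720 read 6.29 and 5.73 in heat and 4.80 and 4.90 in anoxia (1.16 ± 0.28). The means of these 3 genes stood above control in heat and below it in anoxia, while both heat then anoxia arrays were the highest, as the rule required. The 2 genes lower in heat ran the other way. AT5G54170 read 6.72 and 6.27 in heat and 7.66 and 8.17 in anoxia (-1.42 ± 0.38). AT5G64250 read 8.92 and 8.57 in heat and 9.67 and 9.88 in anoxia (-1.03 ± 0.27).

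Some of these calls were lost with a single array left out. The rule was applied to the same arrays, so this too is a description and does not rank the genes. AT5G56980 lost the call without heat replicate 1, heat replicate 2 or anoxia replicate 1, and AT1G63720 without heat replicate 1, anoxia replicate 1 or anoxia replicate 2. AT5G54170 lost it without heat replicate 1, heat replicate 2 or anoxia replicate 2, and AT5G64250 without any one of the 4 heat and anoxia arrays.

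**Figure D4:**
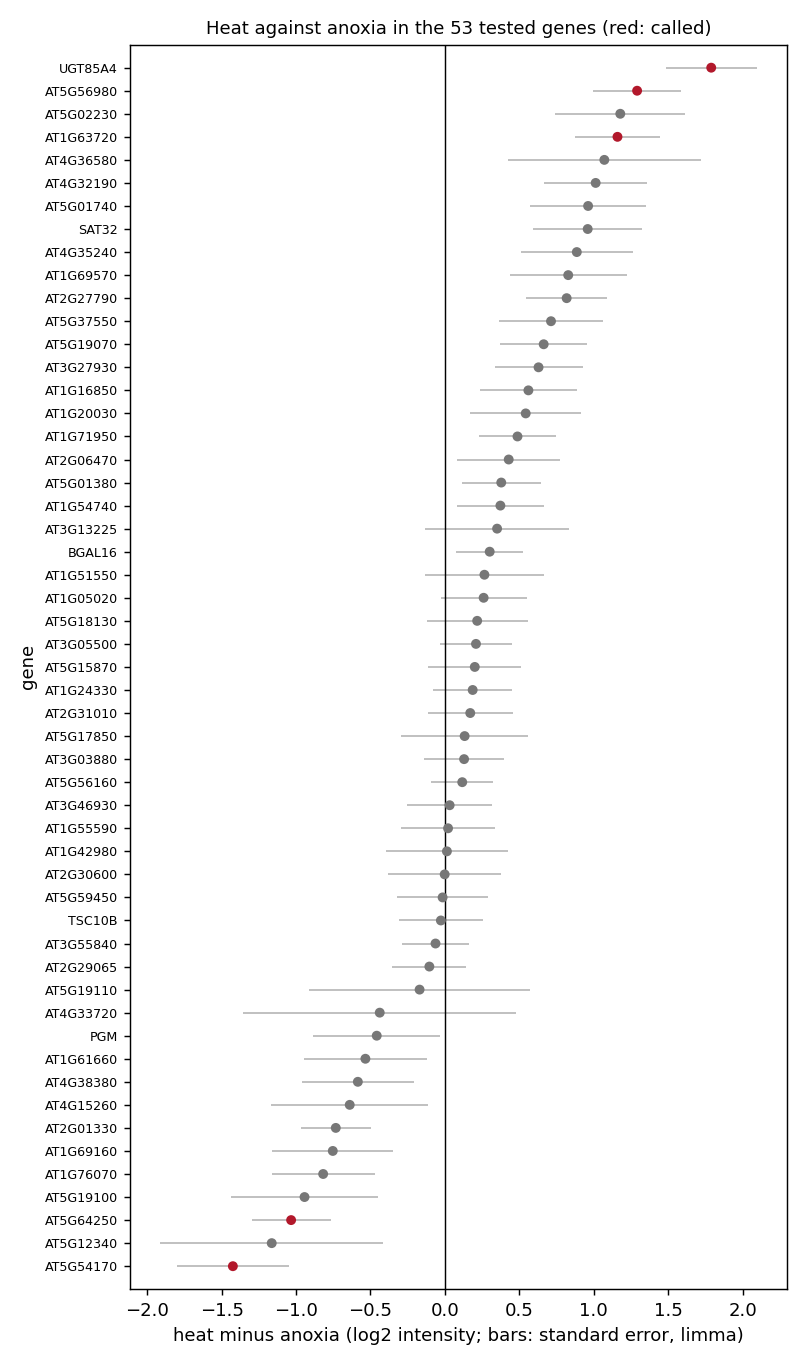
Mean log2 intensity in heat minus that in anoxia for the genes that passed the filter, sorted, with standard errors from the fit and the 5 called genes marked. Most genes lie above 0 and within 1 of it on the deposited scale, where the median of all tested probe sets was -0.20. UGT85A4 at 1.79 and AT5G54170 at -1.42 are the extremes among those called.

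On chromosome 5, 2 of the genes are direct neighbours: AT5G19100 and AT5G19110 both encode aspartyl protease-like proteins. AT5G19100 read 5.59 and 7.14 in heat then anoxia, 4.22 and 3.70 in heat, 4.61 and 5.20 in anoxia, and 3.89 and 4.26 in control. The lower heat then anoxia array was only just above the higher anoxia array, so AT5G19100 showed the pattern far more weakly than AT5G19110. Next to them, AT5G19120 of the same kind is not in the set. It read 11.88 and 12.22 in heat then anoxia, 8.93 and 9.01 in heat, 11.36 and 11.79 in anoxia, and 10.56 and 10.36 in control. It was 1.59 higher than control after heat then anoxia (limma adjusted p = 0.00162), with heat 1.49 below control. Whether probes of these related genes share signal was not tested. Further genes of the set, AT5G19070 and TSC10B, lie 3 and 13 protein-coding genes from AT5G19100, while other named genes of this stretch lay on both sides of control in heat then anoxia: AILP1 at 0.62, AT5G19130 at -0.66, AT5G19150 at -0.86, AT5G19090 at -1.15 and AT5G19170 at -1.49. Chromosomes 1 and 5 hold 33.3% and 29.8% of the set, against 25.8% and 22.5% of all single-gene nuclear probe sets.

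Related genes were looked up in 16 families, listed after the members were known. The name tables gave 29 relatives a probe set, and of the 24 tested 7 were called higher in heat then anoxia than in control and 6 lower (15.2% and 25.4% of all probe sets were). AT2G38250, the other GT-3 trihelix factor, read 7.07 and 7.74 in heat then anoxia, 4.61 and 3.86 in heat, 2.70 and 3.55 in anoxia, and 2.29 and 2.38 in control (5.07 against control, limma adjusted p = 4.67e-05), and misses the rule because heat alone stood 1.90 above control. The lipid droplet protein AT1G67360 was as high after heat alone as after heat then anoxia (4.12 above control in heat then anoxia, limma adjusted p = 9.38e-06, and 4.13 in heat). The GRAS factor AT3G46600 was 3.06 above control in heat then anoxia and 3.49 in anoxia alone (limma adjusted p = 8.49e-05 for heat then anoxia).

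The jasmonate oxidase AT5G05600 was 4.94 above control in heat then anoxia, with heat alone at -0.68 and anoxia alone at 2.12 (limma adjusted p = 0.00123 for heat then anoxia). The AAA ATPase AT3G03060 was 3.12 above control in heat then anoxia and 1.49 in heat, and the formin AT1G59910 was 2.08 above it in heat then anoxia and 1.39 in heat. Other relatives fell: the formin AT2G43800 by 2.06 (limma adjusted p = 0.00107) and the lipid droplet protein AT2G47780 by 1.82 (0.00124). TSC10A, the other copy of the sphingolipid reductase, stood at -0.34 and was not called (limma adjusted p = 0.302), beside 2.17 for TSC10B. The number called higher was 7 or 8 with any one array left out, and the number lower 4 to 6: it was 4 without heat then anoxia replicate 1, control replicate 1 or control replicate 2. With quantile normalization and with median centring 8 were called higher and 3 lower.

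**Figure D5:**
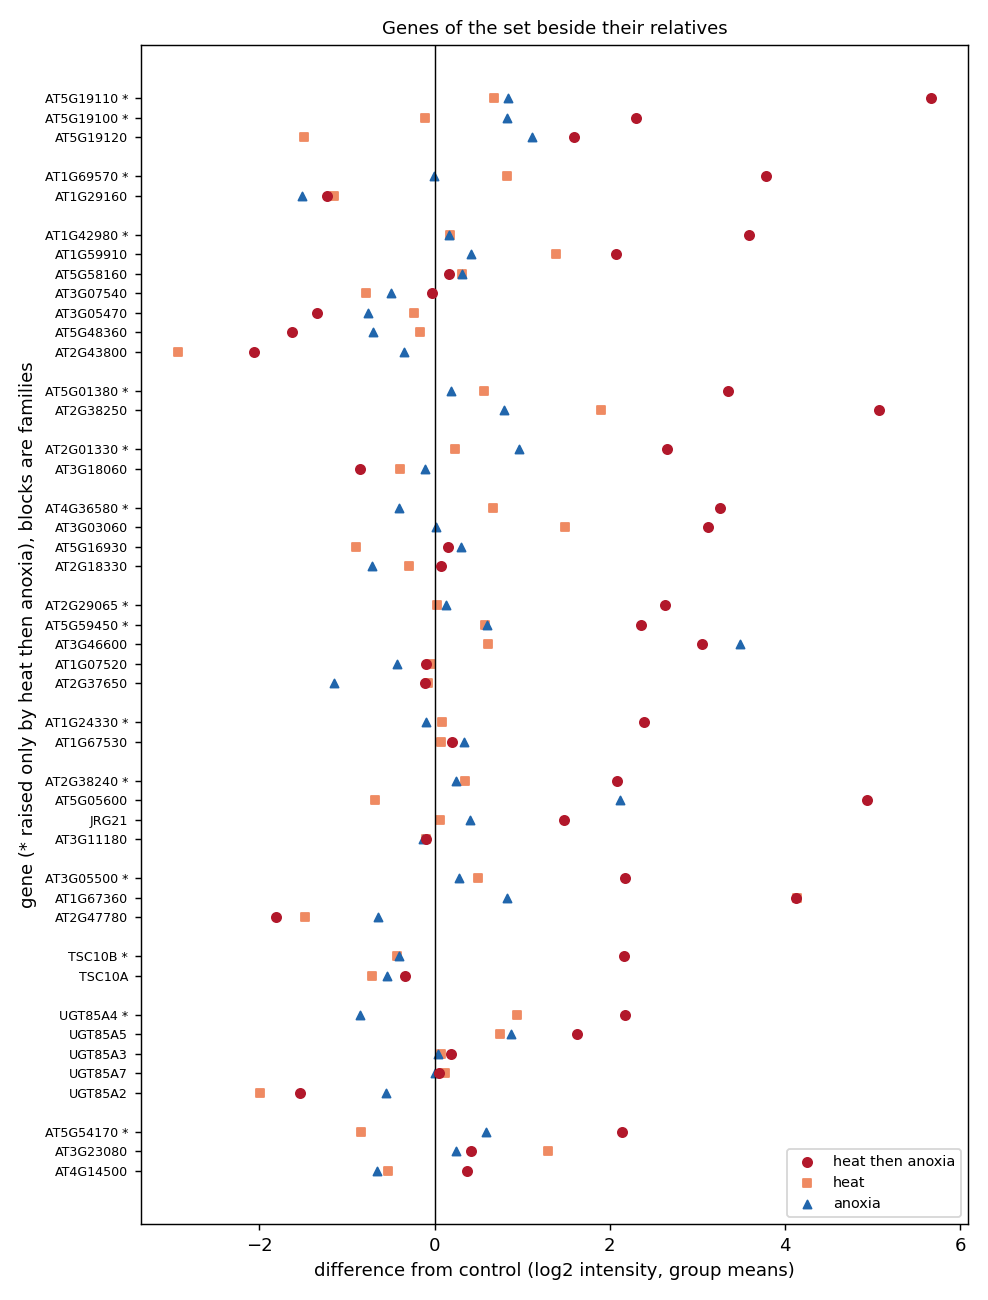
Change against control (log2 units, group means of 2 arrays) in heat then anoxia, heat and anoxia for genes of the set (starred) and for their relatives, by family. Relatives such as AT1G67360 and AT3G46600 reach similar heights to the genes of the set with heat alone or anoxia alone.

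The heat then anoxia replicates differed in a shared direction. Replicate 2 was the higher one in 46 of the 57 genes (80.7%), against 54.8% of single-gene nuclear probe sets that passed the filter, and it is the array with the high 25S ribosomal RNA signal. Its part in the result was not tested. Replicates lay more than 1 apart in 10 of the 57 genes in heat then anoxia, and in 5.65% of single-gene nuclear probe sets that passed the filter. The widest were AT5G12340 (5.31 and 7.66) and AT1G49520 (3.87 and 6.18). These 10 include every gene of the set below the filter: AT1G49520, AT3G53940, AT4G31615 and AT2G38240. The 5.65% and the 54.8% cover only probe sets that passed it, so neither is a like comparison with the 57. With heat then anoxia replicate 2 left out 38 probe sets met the rule, of which 35 were among the 57, and with replicate 1 left out 99 met it, of which 54 were. With heat then anoxia replicate 2 and anoxia replicate 2 both left out, 46 met it, and 35 of those were among the 57. The genes that met the rule under every scaling tried, with log2(intensity + 16), with each array left out in turn and with those 2 arrays left out numbered 6: AT1G16850, AT1G76070, AT3G05500, AT3G55840, AT5G15870 and AT5G59450.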

How the data were processed

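The deposited intensity values, 1 table column per array, were made by the authors with GCRMA, per the labels, on a linear scale; the sources used here give neither its version nor a genome build. They were put on the log2 scale and not normalized again. The 22810 probe sets include 64 array controls, left out here, and 14535 of the other 22746 had a log2 level of at least 4 on at least 2 arrays. The platform table and RefSeq names (assembly TAIR10.1, used for names and gene order) gave 1 gene to 13513 probe sets, several to 503 and none to 8730; 13367 were matched to 1 nuclear gene.

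The fit used limma 3.58.1 (R 4.3.3) over all 14535 probe sets and 8 arrays (4 residual degrees of freedom) and 1 mean per group, with Benjamini-Hochberg adjustment, and called at an adjusted p below 0.05 and at least 2-fold. Tables and figures were made with pandas 2.3.3 and matplotlib 3.10.9 in Python 3.11.15. Each p-value sets a difference between groups against the spread between replicate arrays, moderated over all probe sets (3.8 prior degrees of freedom). The number of arrays limits the precision. In simulated data for heat against anoxia (14535 probe sets, 50 changed at each size), 4%, 90%, 100% and 100% of log2 changes of 1, 2, 3 and 4 were recovered with 11 false calls. Far fewer probe sets were changed there than were called in the data (1375 higher and 1739 lower in heat). The adjustment was thus stricter in the simulation, and these shares do not give the recovery in the data.

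Heat against anoxia was planned as a test, but the rule bounds it through the same arrays, so it is given for the members as a description. The members, gene lists, families and roles were chosen with earlier results of these data known; roles are background knowledge. Genes were named by size of change, by gap, by heat against anoxia calls, by symbol or known role and at the limits of the rule; other members and relatives were named after their values were seen. Replicate numbers were compared across groups: deviations correlated at 0.02 to 0.30 for the 6 pairs of groups. Not all were above 0.1, and the main fit did not pair arrays by number. Whether arrays with the same number share a batch cannot be told from this, so a fit with a block for replicate number is also given. Alternatives were other limits, filters, scalings, a pseudocount of 16, fits and each array left out; 1 more, without the pair of arrays brightest for 25S ribosomal RNA, was chosen after seeing the data. Promoter motifs were not searched, and no sequences are printed.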

Additional observations from a re-analysis of the deposited data

How the results depend on the processing

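The 57 members became 124 with the limit on heat then anoxia at 1.5, 11 with it at 3 and 22 with the single-treatment limit at 0.5; the limits set these counts by construction. With 1 array left out the number was 38 to 99. It stayed within 1.5 times of 57 under the other alternatives, but not with the same genes: 39 with log2(intensity + 16) (18 shared), 62 with quantile normalization (46 shared) and 71 with median centring (36 shared), and the cause was not tested. The median of all probe sets in heat then anoxia against control was -0.33 as deposited, -0.17 with quantile normalization and 0.08 with median centring. With 1 array left out, 6 members moved more than 1.5 times in heat then anoxia minus control, the widest being AT1G49520 (1.08 to 3.39). Members called higher in heat than in anoxia numbered 8 with median centring, 1 at an adjusted p below 0.01 and 1 to 4 with 1 array left out (1 without heat replicate 1 or anoxia replicate 1). Members called lower in heat numbered 1 without a filter, with quantile normalization and with median centring, 0 at an adjusted p below 0.01, and 0 to 2 with 1 array left out (0 without heat replicate 1, heat replicate 2 or anoxia replicate 2). At an unadjusted p below 0.05 limma gave 13 of the 53 in either direction. The share over all probe sets was not counted at that threshold, so nothing particular to the members is read from this number. Of the members' calls, 60.0% were higher in heat as deposited (3 higher, 2 lower). With quantile normalization the share was 80.0% (4 and 1), and with median centring 88.9% (8 and 1). Over all probe sets the shares were 44.2%, 50.9% and 55.9%. The members' shares rest on few calls and the rule bounds their values, so they are not compared with those over all probe sets. Over all probe sets 1739 were lower in heat than in anoxia, 936 at an adjusted p below 0.01, and 1106 to 1692 with 1 array left out (1106 without heat replicate 2); 1375 were higher, 1044 to 1344 with 1 array left out. A block for replicate number gave 3 higher and 2 lower members, and 1431 higher and 1854 lower of all probe sets. Leaving out an array leaves its group with 1 array, taken to vary as much as the other groups do. Changes of members near the dim limit are bounded by the array's background, and no array gives a depth.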

Other observations

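Lists of stress, hormone and cell type genes, 14 in all, were drawn up from general knowledge. Only 63 of their 288 loci were measured, in 10 lists, by a named nuclear probe set that passed the filter. None of the 53 genes of the set that passed the filter was among them. The genes of the set below the filter were not looked up in the lists. The 4 measured genes of the mitochondrial dysfunction response were all called higher than control in limma (median 4.18, against -0.33 over all probe sets, of which 15.2% were called higher and 25.4% lower). In heat alone their median was 3.16, against -0.22 over all probe sets. AT2G21640 was 4.94 above control in heat then anoxia, 3.48 in heat and 3.59 in anoxia. NDB2, an alternative NADH dehydrogenase of mitochondria, was 3.41 above it in heat then anoxia, 2.62 in heat and -0.09 in anoxia. The other measured genes of this list were about as high in heat alone: AT5G51440 (9.81 in heat then anoxia, 9.75 in heat) and AT5G09570 (2.84 and 2.85). Of 25 measured core hypoxia genes 10 were higher and 4 lower (median 0.98).

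Of 14 measured autophagy genes, 3 were called higher and 1 lower (median 0.39). The 3 higher ones are among 9 measured genes of the ATG8 kind, small proteins that coat the autophagosome: ATG8E at 2.01, APG8A at 1.80 and ATG8H at 1.63. The other 6 of that kind were not called, at -0.40 (ATG8G) to 0.99 (ATG8B). Of 5 measured genes of the abscisic acid and desiccation response 2 were called higher and 2 lower (median 1.10), with LEA4-5 not called at 1.10. The lower ones, COR15A and COR15B, which protect plastid membranes in the cold, stood at -2.26 and -1.95. Both calls were lost without heat then anoxia replicate 2 or control replicate 1, and that of COR15B also without heat then anoxia replicate 1. The dehydrin LTI30, which protects cells that lose water, did not meet the rule of the 57 genes. It was 6.13 above control in heat then anoxia, with heat alone at 1.65 and anoxia alone at 1.90, both above the limit of 1. The other dehydrin measured, COR47, was 3.07 above control in heat then anoxia and 2.39 in heat. Of 2 measured genes of the WRKY list 1 was called higher and 0 lower. WRKY22 was 4.41 above control in heat then anoxia, and 5.01 in anoxia alone. WRKY6 stood at -0.53 in heat then anoxia and was not called. The calls of higher level held with any one heat then anoxia or control array left out for AT2G21640, NDB2, ATG8E, APG8A, ATG8H, LTI30, COR47 and WRKY22.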
